A study of Mus musculus with 8 samples.

Results

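The 10 genes described here encode the core of 2 kinds of cell-cell junction in epithelium, the adherens junction and the desmosome, together with the epithelial adhesion molecule Epcam. They are the cadherins Cdh1 and Cdh3, the catenins Ctnna1, Ctnnb1, Ctnnd1 and Jup, the desmosomal genes Dsp, Dsg2 and Dsc2, and Epcam. Array probes were assigned to them through the RefSeq transcript accession that each probe carries, without use of any measured value. This gave 20 probes out of 41174 on the array, for 10 of the 18749 genes with a symbol. All 10 genes passed the filter on dim probes, and the probe that stands for each was well above background on all 8 arrays.

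Total RNA of the No. 4 mammary gland, taken at lactation day 1, was measured in 8 dams, of which 4 were wild type (WT) and 4 lacked Th-POK (KO). Th-POK, encoded by Zbtb7b, is a zinc finger transcription factor best known for directing T cell precursors to the CD4 lineage. All dams were females on the C57/Bl6 background. The knockout animals were a gift from another laboratory, the females were age-matched, and the ages of the dams arrayed, the type of allele and any Cre driver are not given in the sources used here. The glands were not dissociated, so each array holds epithelium, fat, vessels, stroma and blood cells. Each dam gave 1 one-colour Agilent array. The comparison of the genotypes asks which RNAs of the gland differ at the onset of lactation when Th-POK is missing. Each genotype filled a slide of its own, so genotype and slide cannot be told apart in any comparison below.

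In an adherens junction, classical cadherins of neighbouring cells bind each other, beta-catenin (Ctnnb1) or plakoglobin (Jup) holds the cadherin tail, and alpha-catenin (Ctnna1) links the complex to actin. p120-catenin (Ctnnd1) binds the cadherin near the membrane and slows its removal from the surface. In a desmosome, desmogleins and desmocollins take the place of the classical cadherins, and plakoglobin, plakophilins and desmoplakin (Dsp) connect them to keratin filaments. In the mammary gland E-cadherin (Cdh1) and Epcam are typical of epithelial cells that line the lumen, and P-cadherin (Cdh3) of the myoepithelial cells around them.

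Promoter sequence is shown for Epcam, the called member that had a promoter entry in the RefSeq table used here, and for Dsp, a desmosomal member with no difference passing the test. Entries were found for 5 of the 10 members (Ctnnb1, Ctnnd1, Jup, Dsp and Epcam, 7 windows in all). Each window holds the 250 bases before the transcription start, 5′ to 3′ on the strand of the gene, in build GRCm38.p6. Capitals mark CACCTG or its reverse complement CAGGTG, an E-box that Snail and Zeb family repressors are known to bind. It was searched on both strands, and the match on either strand is the same site.
Epcam, chr17:87635729-87635978, plus strand: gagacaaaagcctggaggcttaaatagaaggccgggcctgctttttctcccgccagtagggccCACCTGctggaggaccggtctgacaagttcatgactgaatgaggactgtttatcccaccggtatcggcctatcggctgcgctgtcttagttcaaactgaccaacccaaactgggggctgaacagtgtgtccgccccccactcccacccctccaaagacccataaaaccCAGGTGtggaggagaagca
Dsp, chr13:38151044-38151293, plus strand: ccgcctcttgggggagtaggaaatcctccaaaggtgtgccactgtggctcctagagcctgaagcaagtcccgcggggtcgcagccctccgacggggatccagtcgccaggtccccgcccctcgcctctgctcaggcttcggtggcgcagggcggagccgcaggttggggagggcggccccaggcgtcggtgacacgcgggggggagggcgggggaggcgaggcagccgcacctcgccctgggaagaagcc
Epcam was the only one of these 5 members with a match, and its window held 2, which began 187 and 19 bases before the start. Of 32851 promoter windows of this length in the table, 17.2% held at least 1 match and 2.1% held 2 or more. A match describes the letters of the window only, and binding was not measured.

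The share of probes well above background ran from 66.8% to 75.3% over the 8 arrays, and no spot was saturated. Zbtb7b separated the genotypes completely. Its log2 signal was 9.90, 10.42, 10.13 and 10.23 on the WT arrays, and it was not well above background on any KO array. Taking the lowest signal flagged well above background on each KO array as the limit, its signal was at least 81.5-fold lower in KO glands. The limma adjusted p of 5.71e-09 belongs to the measured log2 difference of -8.58, which uses KO values not well above background. With normexp background correction the log2 difference was -4.25. Values below are log2 signals after quantile normalization, given in the order of replicates 1 to 4, and differences are KO minus WT on that scale. A gene is called where the Benjamini-Hochberg adjusted p of limma, fitted over the 14137 genes tested, is under 0.05. Signals of different probes are not compared, since probes differ in brightness.

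Cdh1 and Epcam rose in KO glands, none of the 10 members fell, and 8 did not pass the test. Over all genes tested, 7.53% were called higher and 8.96% called lower, and nothing particular to these genes is read from a count of 2 in 10. At an unadjusted limma p under 0.05, 5 members were higher and 0 lower. Such p values were common: 4957 of the 14137 genes tested, in either direction, had one of 0.0455 or less. Nothing particular to the members is read from this count either. Of the 10 differences, 8 were above 0 and 2 (Dsp and Dsc2) were below. The median difference of the members was 0.32, against -0.02 over all genes tested, of which 47.6% had a difference above 0. The 4 KO values all lay above the 4 WT values for Cdh1, Ctnnd1, Dsg2 and Epcam, and for no member did they all lie below. Of all genes tested, 24.1% had genotypes that did not overlap, 11.1% with KO higher and 12.9% with KO lower. Because the tissue was whole gland, more RNA of a gene per cell and more cells that express it cannot be told apart in any of these values.

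**Figure D1:**
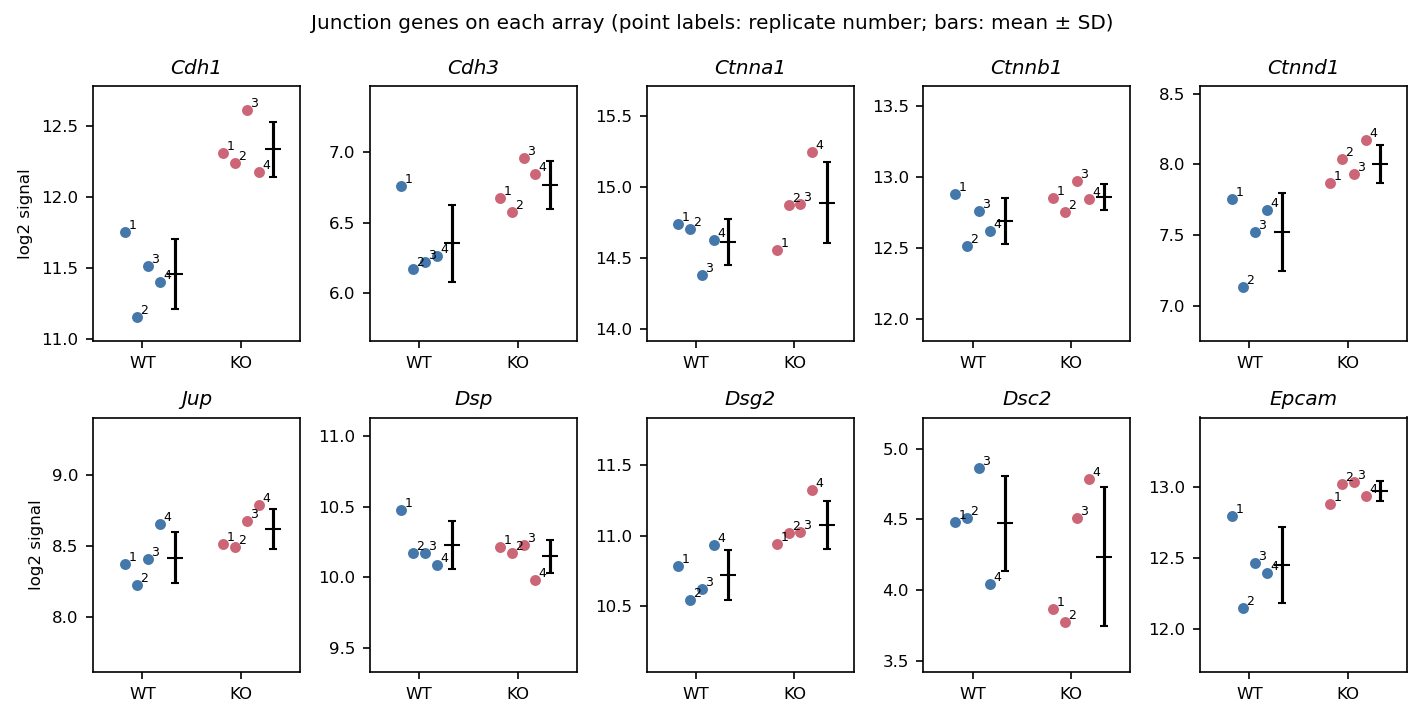
Log2 quantile-normalized signal (vertical axis) of the 10 member genes on the 4 WT and 4 KO arrays, 1 panel a gene, with points for arrays (labelled by replicate number) and bars for the mean ± SD of each genotype. The KO points of Cdh1, Ctnnd1, Dsg2 and Epcam lie above all WT points, while those of Dsp and Dsc2 overlap with WT.

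Of the cadherins, Cdh1, which encodes the E-cadherin of luminal epithelium, had the strongest difference. Its log2 signal was 11.76, 11.16, 11.52 and 11.40 in WT glands and 12.31, 12.24, 12.62 and 12.18 in KO glands. Every KO gland was above every WT gland, so the KO value was necessarily the higher one in all 4 replicate pairs. The mean rose from 11.46 ± 0.25 to 12.34 ± 0.19 (SD, n = 4 each), a difference of 0.88 (95% interval 0.53 to 1.23) or 1.84-fold (limma adjusted p = 0.0143). The call was kept under all 17 alternative settings, with adjusted p between 0.0102 and 0.0450.

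Cdh3, the P-cadherin of myoepithelial cells, gave 6.76, 6.17, 6.22 and 6.27 in WT glands and 6.67, 6.58, 6.95 and 6.84 in KO glands. WT replicate 1 stood above the other WT glands and above KO replicates 1 and 2, so the groups overlapped. The difference was 0.41 (95% interval 0.05 to 0.76) and did not pass the test (limma adjusted p = 0.0992). The failure to pass rested on that array: without WT replicate 1 the difference was 0.54 and passed (adjusted p = 0.0244). Without WT replicate 2 it was 0.35 (limma adjusted p = 0.227).

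Of the catenins, none passed the test, and all 4 differences were above 0. Ctnnd1, the gene of p120-catenin, was the closest. Its values were 7.75, 7.14, 7.52 and 7.68 in WT glands and 7.87, 8.04, 7.93 and 8.17 in KO glands, with WT replicate 2 the lowest. The groups did not overlap, the difference was 0.48 (95% interval 0.14 to 0.82), and the limma adjusted p was 0.0597. Without WT replicate 1 it passed (adjusted p = 0.0419), while without WT replicate 2 the difference was 0.35 (limma adjusted p = 0.116).

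Ctnna1, which encodes alpha-catenin, was 14.74, 14.71, 14.38 and 14.63 in WT glands and 14.55, 14.87, 14.88 and 15.25 in KO glands. KO replicate 1 lay among the WT values and KO replicate 4 well above them. The difference of 0.28 (95% interval -0.09 to 0.64) had a limma adjusted p of 0.243, and it was 0.16 without KO replicate 4 and 0.14 with 75th percentile scaling. Ctnnb1, the gene of beta-catenin, which also acts in Wnt signalling, was 12.88, 12.51, 12.76 and 12.62 in WT glands and 12.85, 12.76, 12.97 and 12.85 in KO glands. The groups overlapped and differed by 0.17 (95% interval -0.09 to 0.42; adjusted p = 0.315). Jup, whose product plakoglobin serves both kinds of junction, was 8.37, 8.23, 8.40 and 8.66 in WT glands and 8.51, 8.49, 8.68 and 8.79 in KO glands. Within each replicate pair the KO value was the higher, but WT replicate 4 exceeded KO replicates 1 and 2. The difference was 0.20 (95% interval -0.08 to 0.48; limma adjusted p = 0.273).

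The desmosomal members did not move as a group. Dsg2, the desmoglein of simple epithelia, was 10.78, 10.54, 10.62 and 10.93 in WT glands and 10.94, 11.02, 11.02 and 11.32 in KO glands. The groups did not overlap, though KO replicate 1 exceeded WT replicate 4 by under 0.01. The difference was 0.36 (95% interval 0.06 to 0.65; limma adjusted p = 0.0878).

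Dsp, which anchors the desmosome to keratin, was 10.48, 10.17, 10.17 and 10.09 in WT glands and 10.22, 10.17, 10.23 and 9.98 in KO glands. The values overlapped, with WT replicate 1 the highest. The difference was -0.08 (95% interval -0.35 to 0.19; limma adjusted p = 0.654), and without WT replicate 1 it was 0.00304, so its sign rested on that array. Dsc2, a desmocollin, was dim, at 4.48, 4.51, 4.86 and 4.04 in WT glands and 3.87, 3.77, 4.51 and 4.79 in KO glands. KO replicates 1 and 2 lay below all WT glands while KO replicate 4 lay near the top of them, and the difference was -0.24 with a wide 95% interval of -0.84 to 0.36 (adjusted p = 0.544). Leaving out 1 array moved it between -0.08 (without KO replicate 2) and -0.42 (without KO replicate 4), and normexp background correction gave -0.06.

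Epcam, a homophilic adhesion molecule of epithelial cells that also binds claudins, rose in KO glands. It was 12.80, 12.15, 12.47 and 12.40 in WT glands and 12.88, 13.02, 13.03 and 12.94 in KO glands. The KO glands lay close together and above all WT glands, of which replicate 1 came nearest. The mean went from 12.45 ± 0.27 to 12.97 ± 0.07 (SD, n = 4 each), a difference of 0.52 (95% interval 0.20 to 0.84) or 1.43-fold (limma adjusted p = 0.0403). The call was near the threshold: a replicate block gave an adjusted p of 0.0598, the methods' t-test gave 0.0650, and leaving off the filter on dim probes gave 0.0571. It was also lost without any one of WT replicates 2, 3 and 4 or KO replicates 1 to 4, with adjusted p of 0.0927, 0.0845, 0.0752, 0.0778, 0.0917, 0.105 and 0.0598 in that order.

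**Figure D2:**
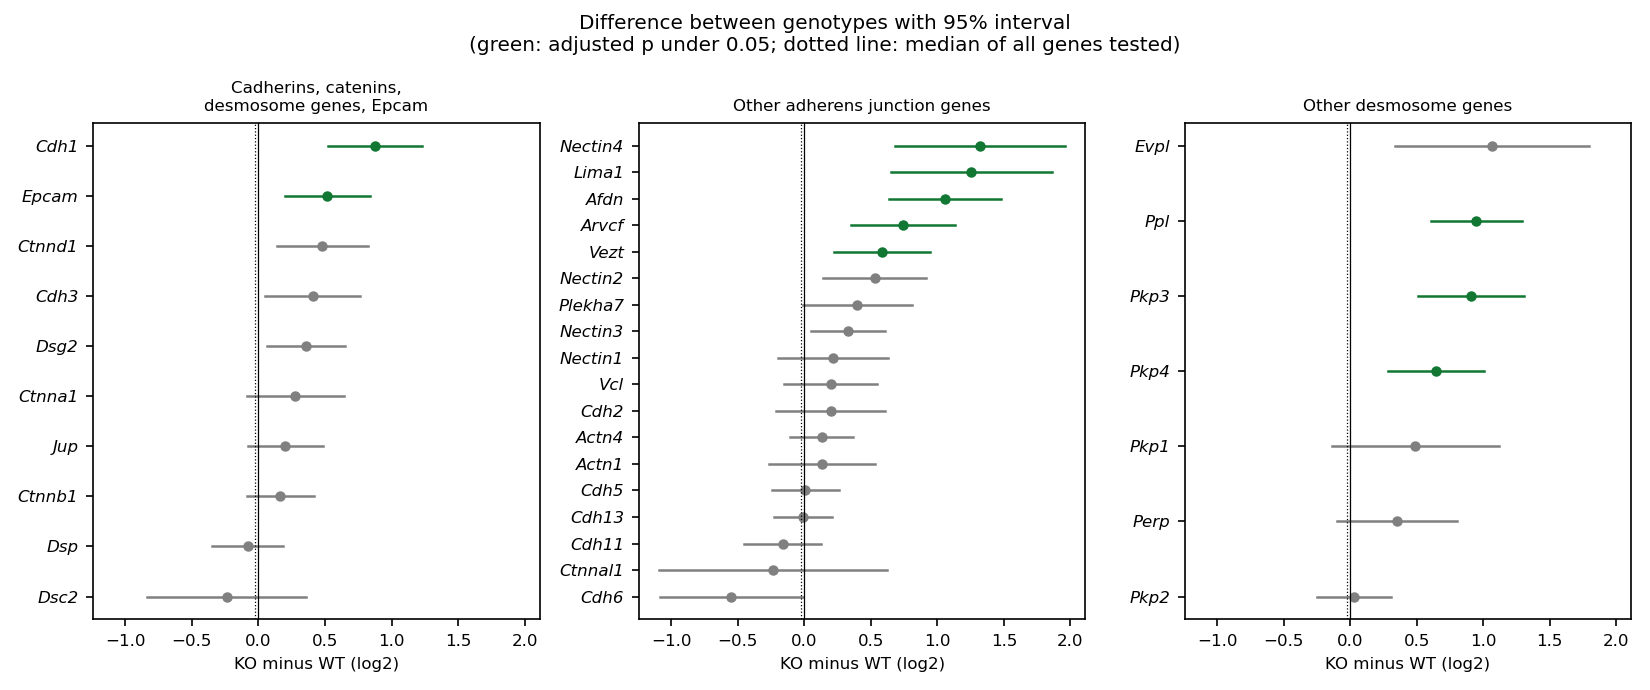
KO minus WT difference (log2, horizontal axis) with its 95% interval for the members and for 2 lists of other junction genes, called genes in green and the dotted line at the median of all genes tested. The interval of Cdh1 runs from 0.53 to 1.23 and that of Epcam from 0.20 to 0.84, those of Ctnna1, Ctnnb1, Jup, Dsp and Dsc2 include 0, and all called genes in the other 2 panels lie to the right of 0.

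Other probes of the same genes gave a second reading of the members, fitted over all 20838 probes with a symbol that passed the filter, of which 14.8% were called in either direction and 6.8% higher. Of the 20 member probes 17 passed it. The dimmer probe of Ctnnd1 read 5.43, 5.48, 5.67 and 5.81 in WT glands and 6.19, 6.16, 6.19 and 6.33 in KO glands. Here too all KO glands were above all WT glands, and this probe was called, with a difference of 0.62 (limma adjusted p over probes = 0.0163). With the mean of both probes, Ctnnd1 passed the test over genes (difference 0.55, adjusted p = 0.0219).

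The dimmer probe of Ctnnb1 differed by 0.13, close to the 0.17 of the brighter one, and was not called. The other 3 probes of Dsg2 differed by 0.15, 0.23 and 0.20, all less than the 0.36 of the brightest, and none was called. The other 2 Dsp probes that passed the filter differed by -0.19 and -0.98. The last value came from 1 array: KO replicate 4 read 1.70 and was not well above background there, while the other KO glands read between 4.53 and 5.16 and the WT glands between 4.74 and 5.25. One further Dsp probe and 2 of the 3 Dsc2 probes did not pass the filter, so Dsc2 rests on a single probe.

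**Figure D3:**
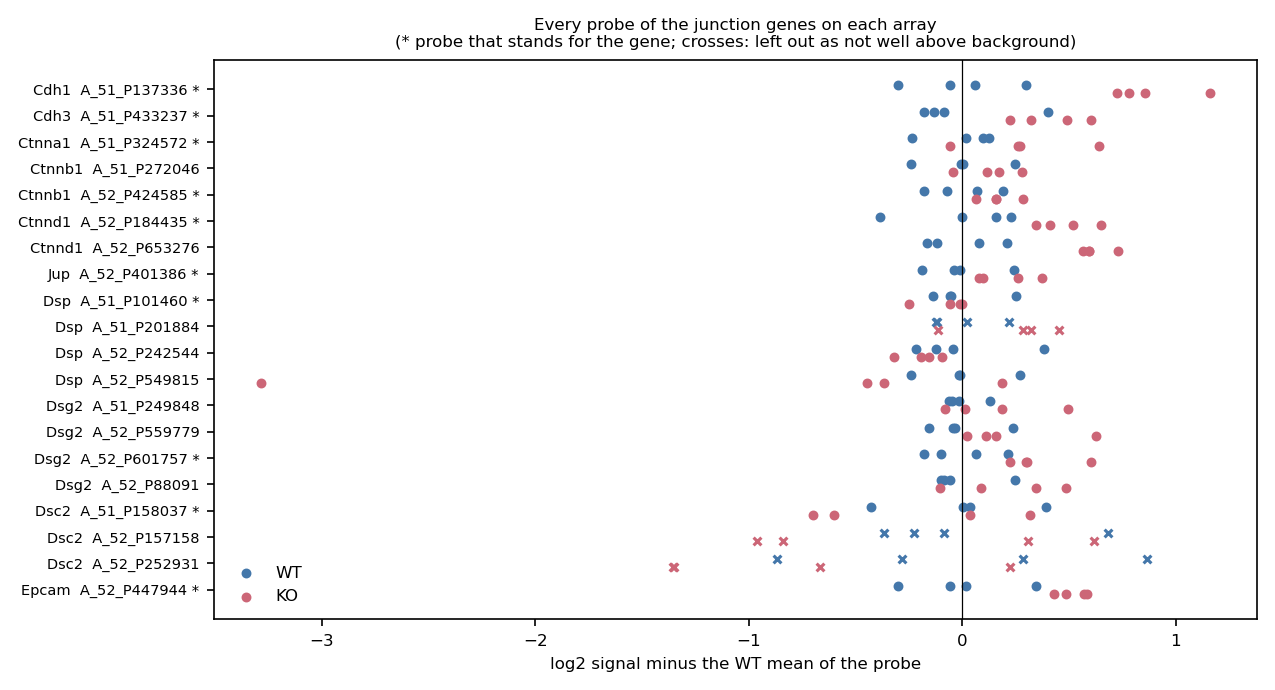
Log2 signal of each of the 20 member probes on each array minus the WT mean of that probe, with WT and KO arrays in 2 colours, an asterisk at the probe that stands for the gene and crosses for probes left out by the filter. The KO points of both Ctnnd1 probes lie to the right of all WT points, and 1 KO point of a Dsp probe, at a log2 signal of 1.70, lies far to the left of the rest.

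The balance between partners of one complex was read within each array as the log2 ratio of their signals, which does not depend on a change common to both genes. Only the difference of a ratio between genotypes is given, since its level depends on the probes. A set of 6 ratios, chosen after the values were seen, were tested by a two-sided exact permutation test over the 8 arrays, in which 0.0286 is the smallest p that 4 against 4 can give. The ratio of Cdh1 to Ctnnb1 lay between -0.12 and 0.11 of the WT mean on WT arrays and between 0.57 and 0.88 on KO arrays. The genotypes were well apart, with a difference of 0.71 (exact p = 0.0286). Cdh1 to Jup differed by 0.68 (exact p = 0.0286), with the highest WT array at 0.34 and the lowest KO array at 0.35. Cdh1 to Ctnna1 (0.60, exact p = 0.0857) and Cdh1 to Ctnnd1 (0.40, exact p = 0.0571) overlapped between genotypes.

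In the desmosome, Dsg2 to Dsp differed by 0.44 (exact p = 0.0857) and Dsg2 to Jup by 0.15 (exact p = 0.0571). Each of the 6 ratios was higher in KO than in WT in all 4 replicate pairs. Each also sets Cdh1 or Dsg2, already seen to be higher in KO, over a gene that differed less. Their shared direction thus follows from the choice of ratios and is no further support, and the permutation p does not cover that choice. Adjusted over the 6 ratios, every permutation p was 0.0857, so none passed a threshold of 0.05. The 4 Cdh1 ratios share the Cdh1 probe and are not independent of one another.

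**Figure D4:**
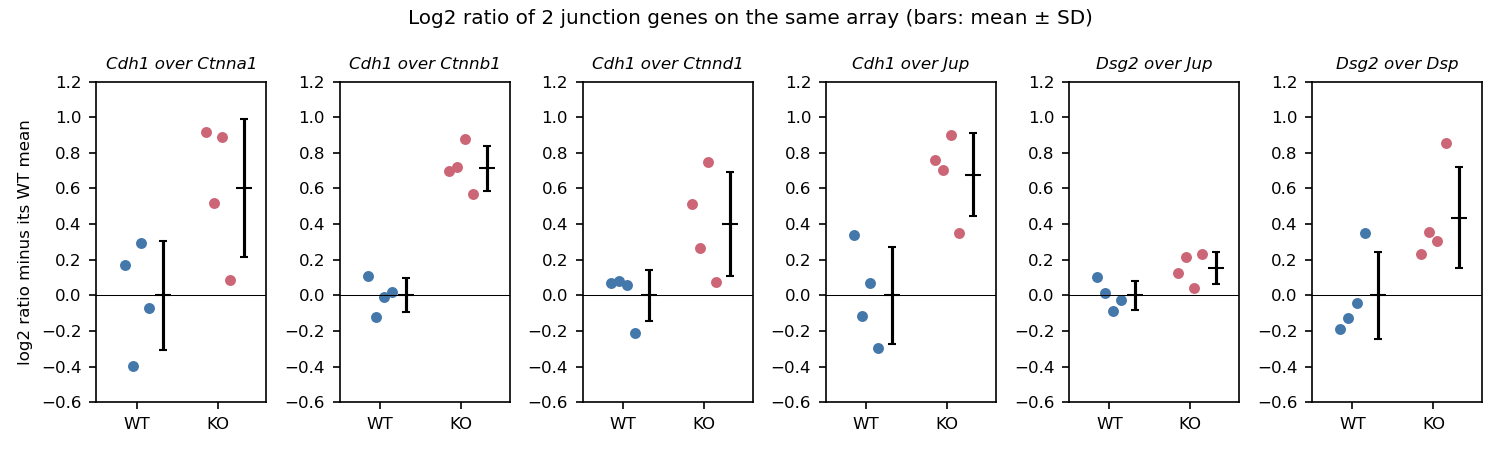
Log2 ratio between pairs of junction genes on each array, centred on the mean of the WT arrays, for WT and KO glands, with bars for mean ± SD. The ratio of Cdh1 to Ctnnb1 lies between -0.12 and 0.11 on WT arrays and between 0.57 and 0.88 on KO arrays, while the ratio of Cdh1 to Ctnna1 overlaps between the genotypes.

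Other genes of the same structures, with their regulators and partners, were taken from 4 lists written from general knowledge. Earlier results of these data were known when the lists were written, so their counts are a description and no independent support. Of 67 listed genes 52 were tested, of which 10 were called higher and 0 lower (19.2% against 7.53% of all genes tested), and 42 differences were above 0 with a median of 0.22. By limma at an unadjusted p under 0.05, 19 were higher and 2 lower. Of all 14137 genes tested, 4957 had an unadjusted p of 0.0455 or less in either direction, so such p values were common. Among the other adherens junction genes, 5 of 18 tested (22 listed) rose and 13 did not pass. Afdn, which encodes afadin, an actin-binding partner of nectins, rose from 12.50 ± 0.39 to 13.55 ± 0.03 (difference 1.06, limma adjusted p = 0.0139). Nectin4, a nectin adhesion receptor, rose by 1.32 (adjusted p = 0.0218), and Lima1, an actin cross-linker that binds alpha-catenin, by 1.25 (adjusted p = 0.0216). Arvcf, a p120-related catenin, rose by 0.74 (adjusted p = 0.0268), and Vezt, which encodes the cadherin-associated vezatin, by 0.58 (adjusted p = 0.0397). Cdh5, the cadherin of endothelium, differed by 0.01 with a 95% interval of -0.24 to 0.26.

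Among the other desmosomal genes, 3 of 7 tested (14 listed) rose, and all 7 differences were above 0. Ppl, which encodes periplakin, a plakin that binds keratin filaments, was 10.02, 9.44, 9.58 and 9.61 in WT glands and 10.53, 10.83, 10.65 and 10.44 in KO glands. Its groups did not overlap, and it rose by 0.95 (limma adjusted p = 0.0106). Pkp3 rose by 0.91 (adjusted p = 0.0175) and Pkp4, a relative of p120-catenin, by 0.65 (adjusted p = 0.0311). Plakophilins such as Pkp3 bind desmoplakin, whose own gene did not pass the test. Evpl, the gene of envoplakin, differed by 1.06 with groups that did not overlap but missed the threshold (adjusted p = 0.0535). The desmogleins and desmocollins of stratified epithelium were not tested, because no probe of theirs passed the filter or matched a symbol.

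Of 15 transcription regulators of these genes that were tested, 0 were called by limma, though 5 were higher and 1 lower at an unadjusted p under 0.05. Over all 14137 genes tested, 4957 had an unadjusted limma p of 0.0455 or less in either direction. The smallest p values were those of Klf4, an activator of Cdh1 in epithelium (difference 0.73, limma adjusted p = 0.0522, and 0.0455 with the replicate block), and Snai3, a Snail family member (difference -0.62, adjusted p = 0.0588). The Klf4 groups overlapped, and 11 of the 17 alternatives left it not called, with adjusted p up to 0.125. Snai3 was well above background on 5 of the 8 arrays only, passed the filter through WT glands, and differed by -0.06 with normexp background correction (adjusted p = 0.603). The repressors Snai2 and Zeb1 differed by 0.01 and -0.05, with 95% intervals of -0.31 to 0.33 and -0.27 to 0.18. Besides Klf4, the regulators higher at an unadjusted p under 0.05 by limma were Ovol2, Twist1, Tcf3 and Tcf4. They differed by 0.54, 0.42, 0.37 and 0.22, with limma adjusted p of 0.101, 0.0796, 0.107 and 0.128. Of 12 partner and processing genes tested, 2 rose. Of these, Prss8, a membrane-bound serine protease, rose by 0.43 (limma adjusted p = 0.0312). Cldn7, a claudin that binds Epcam, differed by 0.09 with a 95% interval of -0.37 to 0.55.

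Afdn and Ppl kept their calls under all 17 alternatives. Pkp3 lost its call without KO replicate 1 (adjusted p = 0.0504) or KO replicate 3 (0.0551). Lima1 lost it by the methods' t-test (0.0545) and without WT replicate 2 (0.0576), KO replicate 1 (0.0587) or KO replicate 3 (0.0618). Nectin4, Arvcf, Vezt, Pkp4 and Prss8 each lost their call without any one of WT replicates 2 and 3 and KO replicates 2 and 3, with adjusted p from 0.0505 to 0.107. Without KO replicate 1, Arvcf, Vezt, Pkp4 and Prss8 lost it as well (up to 0.0794), Vezt and Prss8 also without KO replicate 4 (0.0690 and 0.0540), and Vezt without WT replicate 4 (0.0778). The methods' t-test gave Nectin4 and Arvcf 0.0549, Pkp4 0.0579 and Vezt 0.0694, and Vezt was at 0.155 with the mean of its probes.

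Markers of the cell types that a whole gland holds moved with genotype in part, and their part in the member values was not tested. The mean log2 signal of 12 luminal markers was 11.61 to 12.37 in WT glands and 12.50 to 12.78 in KO glands, without overlap. Of these 12, 4 rose (Krt18, Foxa1, Cldn3 and Cldn4), 1 fell (Muc1) and 7 did not pass, while at an unadjusted p under 0.05 7 were higher and 2 lower. Beside this and the unadjusted marker counts below, 4957 of all 14137 genes tested had an unadjusted limma p of 0.0455 or less. Krt18, a keratin of luminal cells, differed by 0.67 (limma adjusted p = 0.0349) and Krt8, its partner, by 0.46 (adjusted p = 0.0988), while Elf5, a regulator of alveolar cells, differed by -0.35 (adjusted p = 0.107). Of 11 basal markers 0 rose by limma (1 at an unadjusted p under 0.05) and 1 fell (Krt17), and their mean signal overlapped, at 12.49 to 12.97 in WT glands and 12.46 to 12.68 in KO glands. Mean adipocyte signal was 12.62 to 13.27 in WT and 13.19 to 13.39 in KO glands (2 of 9 markers rose, Plin1 and Cfd, and 3 were higher at an unadjusted p under 0.05), and fibroblast signal was 12.63 to 12.86 and 12.84 to 13.45 (1 of 8 rose, Dcn). Of the 8 fibroblast markers all differences were above 0, and 6 were higher and 0 lower at an unadjusted p under 0.05. These marker calls were mostly near the threshold: Cldn4 and Krtdap kept theirs under all 17 alternatives, though Krtdap was well above background on 7 of 8 arrays, passed the filter through KO glands, and differed by 2.19 as reported but by 0.85 with normexp background correction. By contrast, Krt18 (up to 0.0947), Foxa1 (up to 0.113), Cldn3 (up to 0.0732), Muc1 (up to 0.0978), Krt17 (up to 0.0840), Plin1 (up to 0.106), Cfd (up to 0.0769), Dcn (up to 0.0739) and Cd3e (up to 0.0999) each lost theirs without KO replicate 2 or KO replicate 3, among other settings. With the replicate block Foxa1 had an adjusted p of 0.0568. Endothelial markers (0 of 8 called by limma, 1 higher and 1 lower at an unadjusted p under 0.05), leukocyte markers (1 of 9 fell, Cd3e, and 2 were lower at an unadjusted p under 0.05) and skin keratinocyte markers (1 of 4 rose, Krtdap, and 2 were lower at an unadjusted p under 0.05) had overlapping means. Of the skin markers Krt1, Krt2 and Ivl did not pass the filter on either genotype.

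Members were also set against the luminal markers of the same array. The 12 markers themselves were higher by 0.58, with the largest differences in Cldn4 (2.51) and Krt7 (1.81). Krt8, Krt18 and Krt19 alone were higher by 0.46, and the 10 markers left without Cldn4 and Krt7 by 0.26. The relative values below therefore depend on which reference is subtracted. Relative to the mean of the 12 markers, Cdh1 was still higher by 0.30 in KO glands, with the genotypes just apart. Relative to Krt8, Krt18 and Krt19 alone, Cdh1 was higher by 0.42, and relative to the 10 markers left without Cldn4 and Krt7 it was higher by 0.62, again without overlap. Epcam differed by -0.06, 0.05 and 0.25 relative to the same 3 references and overlapped each time. Dsp was lower by all 3 references, at -0.66, -0.54 and -0.34, with every KO gland below every WT gland. Its own signal differed by only -0.08 with overlapping groups, so these values come largely from the rise of the references. Each reference was higher in every KO gland than in any WT gland. The 3 references share markers and are not separate readings. Ctnnb1, whose own difference was 0.17, was at -0.41, -0.30 and -0.10, and overlapped in the last. The references were chosen after the values were seen, and these differences are a description with no test.

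**Figure D5:**
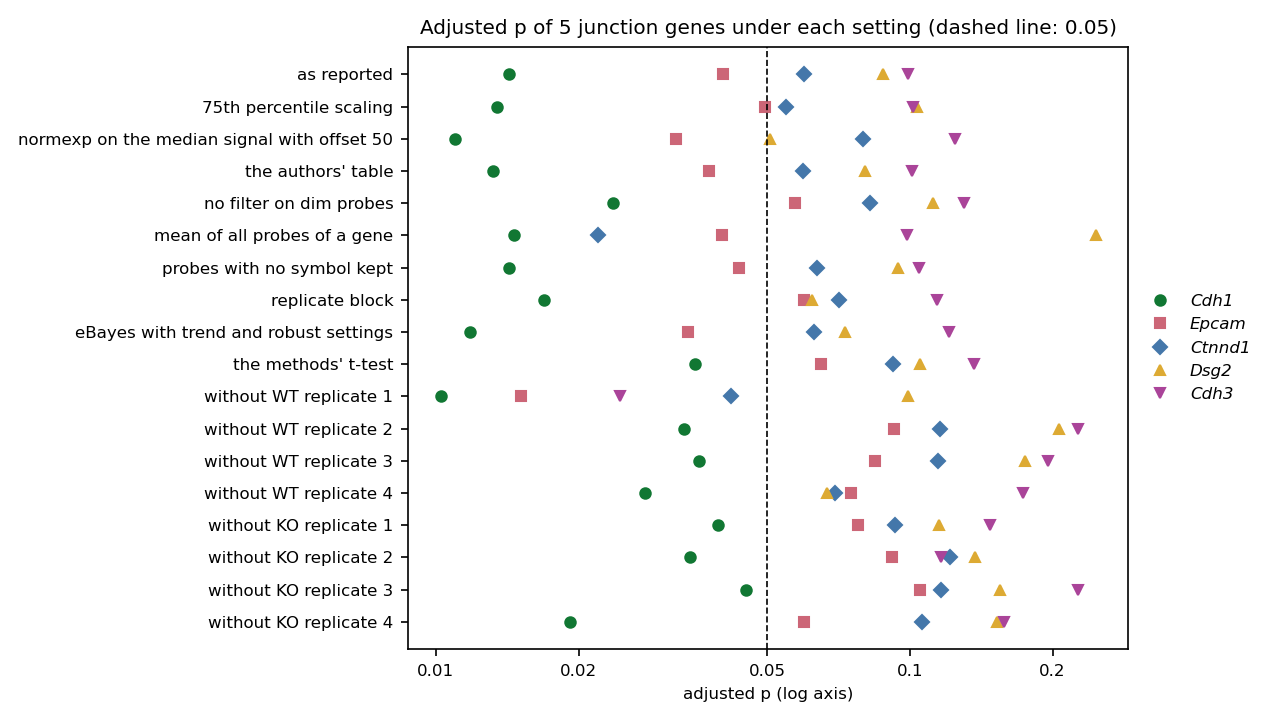
Benjamini-Hochberg adjusted p (horizontal log axis, dashed line at 0.05) of Cdh1, Epcam, Ctnnd1, Dsg2 and Cdh3 as reported and under each of 17 alternative settings (rows). Cdh1 lies left of the line in every row, and Epcam lies right of it without WT replicate 2, 3 or 4 or any one KO replicate.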

How the data were processed

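RNA of 4 WT and 4 KO No. 4 mammary glands was measured on Agilent whole mouse genome arrays, 1 dam per array, and genotype and replicate number were taken from the sample labels. Per the file headers and labels, the authors deposited scanner intensities from Agilent Feature Extraction 10.7, background-subtracted and detrended within each array. They also deposited a table of log2 values quantile-normalized between arrays, used here as an alternative only. The number of arrays limits the precision.

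The processed intensity of every spot other than controls was taken as log2, quantile-normalized with limma 3.58.1 in R 4.3.3, and averaged over the spots of a probe after spots marked as outliers (64 to 100 per array) were left out. Probes were named through their accession and a RefSeq gene table of GRCm38.p6 (27479 of 41174 probes matched). The array design is of build mm9, so no array coordinates are given. The filter on dim probes asked for a flag of well above background on each of the 4 arrays in WT, in KO or in both, and the probe with the highest mean signal stood for a gene, which gave 14137 genes. They were tested with lmFit and eBayes and Benjamini-Hochberg adjustment at 0.05. For Zbtb7b the fold is a lower limit, from the WT mean and, per KO array, the higher of its lowest signal well above background and the signal of the probe. The procedure was also run on simulated data built from the WT means of these genes, with no slide or replicate effect.

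The members and lists were chosen with earlier results of these data known. Text names all members, Zbtb7b, called genes of the other junction lists (at most 6 a list, or the 2 with the smallest p where none passed) and the 3 brightest markers a list where a result turns on them. One called gene of the partner list enters the counts but is not reported here. Called markers, further regulators (such as Twist1) and genes given as contrasts (such as Evpl, Cdh5, Snai2, Zeb1 and Cldn7) were named after their values were seen. Same-numbered WT and KO arrays deviated together from their group means (r of 0.219, 0.165, 0.304 and 0.283, against a mean of -0.0788 for other pairs), so the numbers were taken to pair the arrays and a fit with the replicate number as a block was run as an alternative. The labels give the numbers only and state no pairing, and what same-numbered arrays share was not tested. The reported fit does not use the pairing.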

Additional observations from a re-analysis of the deposited data

Results flagged for a closer look

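In 72 groups of 4 arrays (the members and the other genes followed, by genotype), 4 had a highest or lowest array far from the other 3 by Dixon's ratio, and chance marks about 1 in 20. One was a member: Cdh3 in WT glands, where replicate 1 read 6.76 and the others 6.17 to 6.27. The other 3 were markers of luminal or basal cells. Krt18 in KO glands read 16.58 in replicate 4 and 16.99 to 17.02 in the others, Foxa1 in WT glands read 4.88 in replicate 2 and 6.15 to 6.25 in the others, and Krt17 in KO glands read 10.55 in replicate 4 and 11.35 to 11.47 in the others.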

How the results depend on the processing

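Under 17 alternatives, 156 of 170 member values kept their sign and their side of the threshold, 10 lost a call (all Epcam), 3 gained one (Ctnnd1 in 2, Cdh3 in 1) and 1 changed sign (Dsp, which over all alternatives ran from -0.42 with the mean of its probes to 0.00304 without WT replicate 1, with -0.13 without WT replicate 4 as the lowest when 1 array was left out). The count of members called higher was 2. It was 3 with the mean of all probes of a gene, 1 with no filter on dim probes, 1 with the replicate block and 1 by the methods' t-test, and it ran from 1 to 4 when each array was left out in turn. The 4 without WT replicate 1 were Cdh1, Cdh3, Ctnnd1 and Epcam, and the 1 without any other array was Cdh1. No alternative called a member lower, and the median difference of the members stayed between 0.22 and 0.39. The count of other junction and partner genes called was 10. It was 5 by the methods' t-test, 15 with the replicate block, and 2 to 14 when each array was left out (lowest without KO replicate 3, highest without WT replicate 1). Calls over all genes moved too, from 1065 higher and 1266 lower to 266 and 249 without KO replicate 3, 1388 and 1682 without WT replicate 1, and 593 and 796 by the methods' t-test. The replicate block ended the calls of Epcam and Foxa1, brought Klf4 past the threshold, and changed no other call among the genes followed. Klf4 also passed without KO replicate 4 (0.0147), without WT replicate 1 (0.0399) and under 3 other settings, Snai3 passed with 75th percentile scaling (0.0488) and without WT replicate 1 (0.0482), and Elf5 passed with 75th percentile scaling (0.0343) and without KO replicate 2 (0.0473). The cause of these changes was not tested. The alternative with normexp background correction was run on the median spot signal, chosen after seeing the data, because the files hold no mean signal; the planned version was not run.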
